A study of Mus musculus with 23 samples.

Results

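The comparison described here sets mouse back skin taken 24 h after ultraviolet (UV) irradiation against sham-irradiated skin, both painted with the solvent DMSO alone. Its samples are 8 of the 23 arrays of the series, 4 labelled as DMSO-treated and 24 h after UV (replicates A, B, C and E) and 4 labelled as DMSO-treated and sham-exposed (replicates A, B, C and D), chosen by those labels and not by any measured value. The mice were adult females of the outbred CD-1 stock, with no transgene named in the labels. The back was clipped and shaved, DMSO was applied 2 h before exposure to 10 kJ/m2 of UV or to sham, and total RNA of whole skin was hybridised to an oligonucleotide array. Sham skin was taken at 6 h, so the groups differ in time since treatment as well as in UV, and these cannot be told apart. Of the remaining arrays, 4 hold DMSO skin at 6 h after UV, and 7 hold skin painted with 4 mg of AG825, an inhibitor of the receptor tyrosine kinase Erbb2, after sham (n = 4) or 24 h after UV (n = 3); the 4 arrays of AG825 skin at 6 h after UV entered the fit only. Since no label states that each replicate came from its own animal, a p-value here covers only the spread among arrays within groups. That spread was estimated jointly over all 6 groups of the series, not from the 2 compared groups alone.

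UV damages keratinocyte DNA and sets off inflammation: irradiated keratinocytes release cytokines and chemokines, vessels in the dermis display adhesion molecules, and neutrophils and then monocytes enter the skin. The epidermis is renewed by division of basal keratinocytes, which on their way outward make keratins, the cornified envelope and the lipids of the water barrier. Hair follicles, sebaceous glands, fat and the thin muscle under mouse skin lie in the same sample, so that a value from whole skin sums over all of them.

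Values are log2 expression values made with RMA, differences are given as log2 UV 24 h minus sham ± the standard error (SE) of the model, and adjusted p-values come from limma over all 19645 probe sets, with 0.05 as the threshold; rose and fell are written of genes past it. Where several probe sets name a gene, the brightest on average stands for it. Of the probe sets 8.72% passed. Of 12106 genes, 1284 passed (10.6%), of which 713 rose (5.89%) and 571 fell (4.72%), and 305 of the first (2.52% of all genes) and 94 of the second (0.776%) changed by at least 2-fold. The median over all genes was -0.039, and the arrays of the groups did not overlap for 950 genes with UV higher (7.85%) and 1042 with UV lower (8.61%). Each count of a gene list below is to be read against those shares. The members of the 46 lists and their medians are plotted by list.

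The label of the tissue was checked on marker genes. Of 6 epidermal markers 5 were called present on all 8 arrays, as were 5 of 5 fibroblast, 5 of 5 skeletal muscle, 6 of 7 hair follicle and 3 of 4 measured adipocyte markers. Arrays of a group correlated across probe sets at 0.973 to 0.991 (sham) and 0.969 to 0.990 (UV 24 h). Some arrays stood apart in particular gene groups. UV 24 h replicate E had a score of -1.84 for hair shaft and inner root sheath genes, against 0.46 to 1.63 on the other irradiated arrays and 1.02 to 2.20 after sham; for a score, each gene is centred over the 12 DMSO arrays and the list's members are averaged. Sham replicate A had the lowest sham score for cornified envelope genes, -0.47 against 0.62 to 1.32. Sham replicate D had the highest sham values of several alarmins, given with those genes. Where a list's count of 3 or more fell by over 1.5 times without 1 array, those arrays are named with it.

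**Figure D1:**
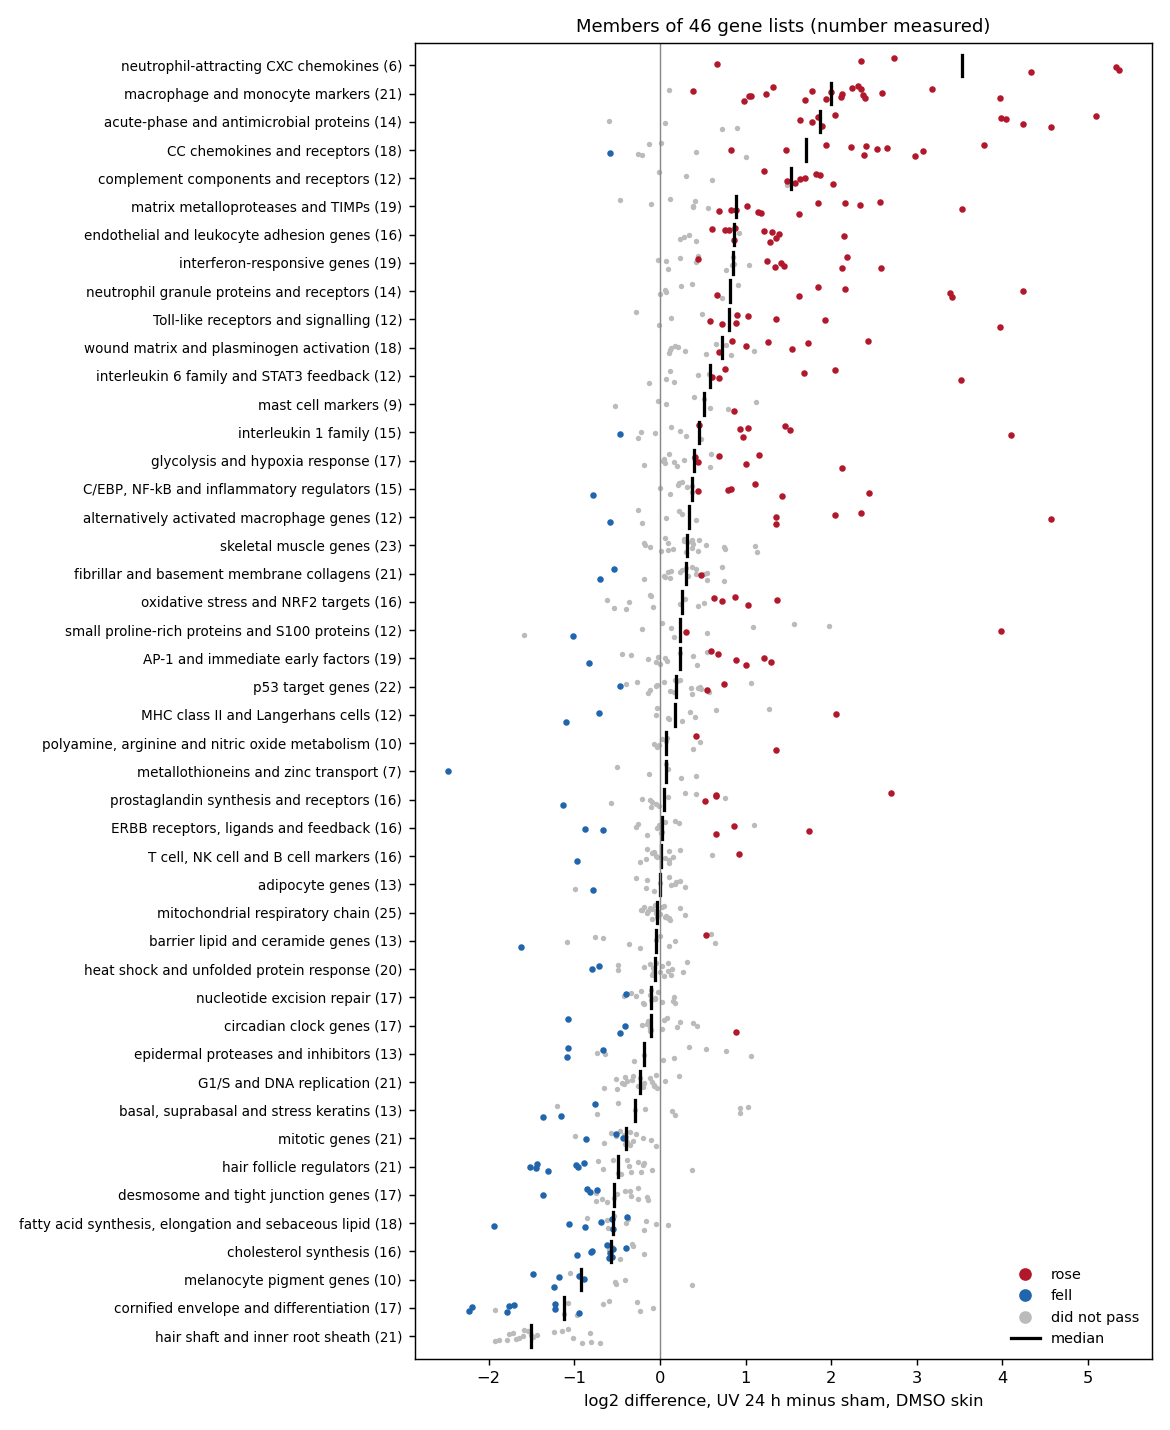
Each dot is the log2 difference (UV 24 h minus sham, DMSO skin, 4 and 4 arrays) of a gene in one of 46 lists, red where it rose, blue where it fell and grey where it did not pass, and the black line is the list's median. Chemokine, macrophage and acute-phase lists lie furthest to the right (medians 3.53, 2.00 and 1.87), and hair shaft, cornified envelope and melanocyte lists furthest to the left (-1.5, -1.12 and -0.92).

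Chemokines that attract neutrophils showed the largest rises. Of 8 such CXC chemokines and receptors listed, 6 were measured and 6 rose (against 5.89% of all genes), with a median of 3.53. Cxcl2 measured 5.89, 5.37, 5.87 and 5.89 on sham replicates A to D and 12, 10.79, 10.55 and 11.14 on UV 24 h replicates A, B, C and E. Its difference was 5.36 ± 0.49, a 41.2-fold rise (adjusted p = 5.63e-07). Cxcl5 measured 4.90, 4.88, 4.99 and 5.77 after sham and 10.61, 10.51, 9.78 and 10.97 after UV, a difference of 5.33 ± 0.31 (adjusted p = 2.21e-09). Every irradiated array lay above every sham array for both genes, and replicate A was the highest for Cxcl2 and replicate E for Cxcl5. Cxcl1, a ligand of the same receptor, rose by 4.33 ± 0.35 (adjusted p = 1.12e-07). Of the 2 platelet chemokines, Pf4 rose by 2.35 ± 0.32 (adjusted p = 6.71e-05) and Ppbp by 2.73 ± 0.38 (adjusted p = 9.91e-05). The receptor Cxcr2, which neutrophils carry, was called absent on all sham arrays and present on only 1 irradiated array. It was at least 1.59-fold higher after UV (adjusted p = 0.0183), a rise that did not pass without any 1 of 3 arrays (adjusted p 0.0629 to 0.0749). A fold is given as at least a value where the lower group was called absent on every array. It takes, on each of those arrays, the higher of the lowest value called present and the gene's own value; the own value was the higher for every gene given so here, and the fold is that between the group means.

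The promoters of the leading chemokines and of Il6 were searched for short motifs, since these genes moved together. The window was 250 bases before to 50 bases after the start in RefSeq (build GRCm38.p6), both strands were read, and 13 of the 15 genes with the largest rises had a window. The NF-kB motif, GGG, any 3 bases and TTCC, stood in 3 of these 13 (Cxcl1, Cxcl2 and Il6) and in 5.56% of all 32851 windows. None of 13 windows among the 15 largest falls held it. The 150 bases before each start are shown with the matches in capitals. They lie on the + strand at chr5:90891095-90891244 (Cxcl1), chr5:90903749-90903898 (Cxcl2) and chr5:30012964-30013113 (Il6).
Cxcl1: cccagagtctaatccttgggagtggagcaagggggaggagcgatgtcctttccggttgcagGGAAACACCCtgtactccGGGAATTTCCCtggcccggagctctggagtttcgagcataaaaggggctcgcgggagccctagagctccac
Cxcl2: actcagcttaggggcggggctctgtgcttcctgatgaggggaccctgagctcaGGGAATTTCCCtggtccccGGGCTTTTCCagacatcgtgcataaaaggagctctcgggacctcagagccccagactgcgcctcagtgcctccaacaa
Il6: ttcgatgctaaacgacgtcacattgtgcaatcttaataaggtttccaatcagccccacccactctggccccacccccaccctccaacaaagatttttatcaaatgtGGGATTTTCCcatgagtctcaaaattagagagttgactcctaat
Cxcl1 and Cxcl2 share the run GGGAATTTCCC, which matches the motif on both strands with 1 base of shift. The first capitals of Cxcl1, GGAAACACCC, match on the opposite strand. A match describes these letters and was not tested as a binding site.

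Of 18 CC chemokines and receptors measured 11 rose and 1 fell, with a median of 1.71. Ccr1, a receptor of monocytes and neutrophils, measured 6.65, 6.35, 6.76 and 7.18 after sham and 11.14, 10.18, 10.01 and 10.76 after UV, with no overlap. Its difference was 3.79 ± 0.25 (adjusted p = 5.93e-09). Ccl3 was at least 8.39-fold higher (adjusted p = 3.03e-06) and Ccl12 at least 7.88-fold higher (adjusted p = 0.00113). The monocyte-attracting Ccl2 and Ccl7 rose by 2.38 ± 0.39 and 2.65 ± 0.36, and their receptor Ccr2 by 1.94 ± 0.38 (adjusted p = 0.000459, 6.62e-05 and 0.00228). Chemokines of dendritic and T cell traffic went different ways. Ccl5, which attracts T cells, was at least 1.78-fold higher (adjusted p = 0.0418), a call lost without any 1 of 5 arrays (adjusted p 0.0556 to 0.189) and with the dChip signal (0.57, adjusted p = 0.104). Ccl22, made by dendritic cells, fell by 0.58 ± 0.14 (adjusted p = 0.00887; -0.34 and 0.522 with the dChip signal), while Ccl17 differed by -0.21 ± 0.24 (adjusted p = 0.741), Ccl20 by -0.26 ± 0.27 (adjusted p = 0.709) and the receptor Ccr7 by 0.01 ± 0.11 (adjusted p = 0.976).

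Cytokines of the interleukin 1 and 6 families rose with some of their receptors and feedback genes. Il1b measured 7.35, 7.27, 7.90 and 8.29 after sham and 12.55, 11.42, 11.27 and 11.99 after UV. The groups did not overlap, and Il1b rose by 4.10 ± 0.31 (adjusted p = 2.26e-08), while Il1a differed by 0.30 ± 0.22 (adjusted p = 0.542). Among 15 members of the interleukin 1 family 7 rose and 1 fell (median 0.46). The signalling receptor Il1r1 rose by 1.52 ± 0.19 (adjusted p = 3.43e-05), its partner Il1rap by 1.03 ± 0.17 (adjusted p = 0.000457) and Il33, an alarmin of barrier cells, by 1.46 ± 0.27 (adjusted p = 0.00121). The receptor antagonist Il1rn differed by 0.13 ± 0.15 (adjusted p = 0.755).

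Il6 measured 5.31, 4.80, 4.95 and 5.25 after sham and 10.11, 8.15, 7.48 and 8.67 after UV, a difference of 3.52 ± 0.45 (adjusted p = 3.43e-05). All irradiated arrays were above all sham arrays, with replicate A the highest. Of 12 genes of the interleukin 6 family and its STAT3 pathway 6 rose (median 0.59), among them Osmr, the receptor of oncostatin M, by 1.68 ± 0.17 (adjusted p = 1.78e-06) and Stat3 itself by 0.76 ± 0.14 (adjusted p = 0.00129). Socs3, the feedback inhibitor of the pathway, was at least 4.13-fold higher (adjusted p = 6.77e-05). The receptor chain Il6ra differed by 0.07 ± 0.11 (adjusted p = 0.836). Prostaglandin genes were mixed, with 4 of 16 rising and 1 falling (median 0.05); 2 rose without sham replicate B or C or UV 24 h replicate A or E, and with the dChip signal. The inducible cyclooxygenase Ptgs2 measured 5.51, 5.37, 5.65 and 5.12 after sham and 8.94, 8.57, 7.11 and 7.81 after UV (2.70 ± 0.31, adjusted p = 1.11e-05). Its groups did not overlap, and the prostaglandin E2 synthase Ptges differed by 0.76 ± 0.28 (adjusted p = 0.103; 0.97 and 0.0411 without sham replicate D).

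Acute-phase and antimicrobial proteins rose in 10 of 14 measured members, with a median of 1.87. Saa3, a serum amyloid A protein made in inflamed tissue, measured 6.56, 6.74, 7.39 and 10.19 after sham and 12.64, 13.02, 12.37 and 13.19 after UV, a difference of 5.09 ± 0.64 (adjusted p = 3.11e-05). Lcn2, which binds bacterial siderophores, measured 6.84, 7.58, 7.85 and 10.19 after sham and 12.40, 12.21, 12.19 and 12.62 after UV (4.24 ± 0.65, adjusted p = 0.000234). S100a9, a subunit of calprotectin, ran from 7 on sham replicate A through 8.10 and 10.37 to 13.24 on sham replicate D, against 13.93, 13.31, 13.53 and 13.86 after UV. For all 3 genes sham replicate D was the highest sham array, and for S100a9 it lay just below the lowest irradiated array. S100a9 rose by 3.98 ± 0.93 (adjusted p = 0.00904). The pentraxin Ptx3 rose by 4.04 ± 0.38 (adjusted p = 8.34e-07) and haptoglobin, Hp, by 1.89 ± 0.17 (adjusted p = 3.56e-07). Chil3, a chitinase-like protein of myeloid cells, was at least 23.8-fold higher (adjusted p = 1.64e-06). It was higher on UV 24 h replicates A and E (11.57 and 11.79) than on B and C (8.85 and 9.96).

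Genes of neutrophils were uneven. Those that rose include the formyl peptide receptor Fpr2 by 3.39 ± 0.22 (adjusted p = 5.93e-09), the C-type lectin Clec4e by 3.41 ± 0.29 (adjusted p = 2.51e-07), the growth factor receptor Csf3r by 1.63 ± 0.26 (adjusted p = 0.000307) and the collagenase Mmp8 by 2.16 ± 0.35 (adjusted p = 0.000441). Granule protein genes lay on both sides of the threshold, since Lcn2 and Mmp8 rose while others did not pass. Mpo differed by 0.25 ± 0.13 (adjusted p = 0.336), Elane by 0.00 ± 0.13 (adjusted p = 0.999), Ltf by 0.06 ± 0.11 (adjusted p = 0.875) and Camp by 0.73 ± 0.23 (adjusted p = 0.0554). Camp passed without sham replicate D (0.89, adjusted p = 0.0267), UV 24 h replicate B (0.89, adjusted p = 0.0277) or UV 24 h replicate C (0.85, adjusted p = 0.0351). Elane was called absent on all 8 arrays. In all, 7 of 14 listed genes of neutrophils rose, with a median of 0.82.

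Macrophage and monocyte markers rose in 20 of 21 measured members, Marco being the exception (0.11 ± 0.11, adjusted p = 0.704). The median was 2.00, and the score ran from -1.63 to -0.86 after sham and from 0.11 to 1.08 after UV. Cd14, the co-receptor for lipopolysaccharide, measured 7.82, 7.45, 7.93 and 8.11 after sham and 12.47, 11.24, 11.33 and 12.16 after UV (3.97 ± 0.29, adjusted p = 1.94e-08). The groups did not overlap, and UV 24 h replicates A and E were the higher. The Fc receptors Fcgr1 and Fcgr3 rose by 2.13 ± 0.25 and 2.59 ± 0.35 (adjusted p = 1.02e-05 and 6.62e-05), the adaptor Tyrobp by 2.31 ± 0.31 (adjusted p = 5.03e-05), the membrane protein Ms4a6d by 3.18 ± 0.43 (adjusted p = 6.71e-05) and the mannose receptor Mrc1 by 2.35 ± 0.35 (adjusted p = 0.00016). In a whole-tissue sample more cells of a type and more RNA per cell cannot be told apart, here and for every cell marker below. Complement genes rose in 8 of 12 (median 1.53), with factor B, Cfb, up by 1.87 ± 0.23 (adjusted p = 2.41e-05), properdin, Cfp, by 1.82 ± 0.28 (adjusted p = 0.00025) and the anaphylatoxin receptor C3ar1 by 1.64 ± 0.28 (adjusted p = 0.000626). Slfn4, a Schlafen gene of myeloid cells, was at least 19.5-fold higher (adjusted p = 1.17e-08).

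Of 12 genes of Toll-like receptors, which sense microbial products, and of their signalling, 8 rose (median 0.81). Tlr1 rose by 1.93 ± 0.29, Tlr2 by 1.35 ± 0.19 and Tlr6 by 0.90 ± 0.14 (adjusted p = 0.00017, 0.000113 and 0.000242), the 3 surface receptors for lipoproteins, but Tlr6 did not pass with the dChip signal (0.33, adjusted p = 0.242). The endosomal receptors Tlr3, for double-stranded RNA, and Tlr7 differed by 0.13 ± 0.12 (adjusted p = 0.65) and 0.49 ± 0.18 (adjusted p = 0.113; 0.60 and 0.0495 without UV 24 h replicate C). The shared adaptor Myd88 rose by 0.89 ± 0.17 (adjusted p = 0.00144).

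Markers of other leukocytes moved less. Cd207, langerin of Langerhans cells, measured 8.81, 9.06, 9.08 and 8.78 after sham and 7.77, 7.64, 7.81 and 8.11 after UV. It was called present on all 4 sham arrays and absent on all 4 irradiated arrays, and was at least 2.15-fold lower (adjusted p = 0.0019). MHC class II genes did not pass, with H2-Ab1 at 0.35 ± 0.34 (adjusted p = 0.696) and Cd74 at 0.11 ± 0.30 (adjusted p = 0.926), whereas the lysosomal protease Ctss rose by 2.06 ± 0.21 (adjusted p = 2.11e-06). Of 16 T, NK and B cell markers the T cell receptor subunit Cd3g fell by 0.97 ± 0.26 (adjusted p = 0.0188) but did not pass without any 1 of 3 arrays (adjusted p 0.0605 to 0.0739). The cytotoxic granule protease Gzmb was at least 1.89-fold higher (adjusted p = 0.0114), but with the dChip signal it did not pass (0.46, adjusted p = 0.331). B cell markers Ms4a1 and Cd79a differed by -0.07 ± 0.14 and 0.06 ± 0.13. Of 9 mast cell genes only Cma1, a chymase, rose (0.87 ± 0.27, adjusted p = 0.0495), and its call was lost without any 1 of 6 arrays (adjusted p 0.0787 to 0.209).

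Vessel and adhesion genes rose in 11 of 16, with a median of 0.87. Icam1, to which leukocyte integrins bind, measured 7.89, 7.97, 7.64 and 8.28 after sham and 9.71, 9.15, 9 and 9.35 after UV, without overlap (1.36 ± 0.18, adjusted p = 4.88e-05). P-selectin, Selp, and its ligand Selplg rose by 1.31 ± 0.20 and 1.21 ± 0.16 (adjusted p = 0.000269 and 5.98e-05), and the leukocyte integrin subunit Itgb2 by 2.15 ± 0.35 (adjusted p = 0.000363). The endothelial cadherin Cdh5 rose by 1.29 ± 0.24 (adjusted p = 0.00153), while the VEGF receptors Kdr and Flt1 differed by 0.34 ± 0.15 (adjusted p = 0.212; 0.48 and 0.0462 without UV 24 h replicate C) and 0.24 ± 0.12 (adjusted p = 0.27). Another probe set of Flt1 rose by 0.59 (adjusted p = 0.00323), and another of Cdh5 differed by 0.12 (adjusted p = 0.556). With the dChip signal 7 of the 16 rose.

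Proteases that cut matrix rose together with Timp1, their inhibitor. Of 19 metalloproteases and inhibitors 12 rose (9 without sham replicate B or UV 24 h replicate B or E), and the median was 0.89. Mmp13, a collagenase, measured 4.83, 4.85, 5.38 and 4.80 after sham and 8.20, 9.28, 8.14 and 8.34 after UV, a rise of 3.53 ± 0.41 (adjusted p = 1.15e-05) with replicate B the highest. The stromelysin Mmp3 rose by 2.34 ± 0.23 (adjusted p = 1.64e-06), the gelatinase Mmp9 by 1.85 ± 0.19 (adjusted p = 3.26e-06) and Timp1 by 2.57 ± 0.28 (adjusted p = 4.26e-06). The inhibitors Timp2 and Timp3 differed by 0.41 ± 0.17 (adjusted p = 0.174) and -0.47 ± 0.20 (adjusted p = 0.16). Another probe set of Timp2 rose by 0.83 (adjusted p = 0.00519), and its remaining ones did not pass (-0.09 to 0.46). Of 18 genes of wound matrix and plasminogen activation 7 rose (median 0.73), or 4 without UV 24 h replicate A, with tenascin C, Tnc, up by 2.43 ± 0.25 (adjusted p = 2.11e-06), the collagen cross-linking oxidase Lox by 1.54 ± 0.31 (adjusted p = 0.00266) and thrombospondin 1, Thbs1, by 1.73 ± 0.36 (adjusted p = 0.00328). Of 21 collagen and matrix genes 1 rose and 2 fell. Col4a1, of basement membranes, rose by 0.48 ± 0.15 (adjusted p = 0.0433), a call lost without any 1 of 6 arrays (adjusted p 0.0812 to 0.148). Col17a1 of hemidesmosomes and Col7a1 of anchoring fibrils fell by 0.70 ± 0.20 and 0.53 ± 0.15 (adjusted p = 0.0264 and 0.0267), lost without any 1 of 5 (adjusted p 0.0525 to 0.129) and of 4 arrays (0.0575 to 0.128), and Col7a1 was at -0.12 with the dChip signal (adjusted p = 0.71). The fibrillar collagens named did not pass, with Col1a1 at 0.06 ± 0.26 (adjusted p = 0.954) and Col3a1 at 0.33 ± 0.15 (adjusted p = 0.228; 0.52 and 0.01 without UV 24 h replicate C). The AP-1 motif TGANTCA, a palindrome read on both strands, stood in 7.81% of all windows and in 3 of the 13 windows of the largest rises, those of Il6, Mmp13 and Slfn4. In the last 2 it lies close before the start, as the capitals show in chr9:7272364-7272513 (Mmp13) and chr11:83175036-83175185 (Slfn4), both on the + strand of GRCm38.p6.
Mmp13: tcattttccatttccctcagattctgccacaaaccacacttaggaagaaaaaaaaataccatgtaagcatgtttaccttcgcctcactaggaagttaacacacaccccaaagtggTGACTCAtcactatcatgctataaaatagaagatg
Slfn4: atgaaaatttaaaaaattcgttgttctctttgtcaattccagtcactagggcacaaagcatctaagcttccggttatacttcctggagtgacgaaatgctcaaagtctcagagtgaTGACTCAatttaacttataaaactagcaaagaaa

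Transcription factors that bind such motifs moved unevenly at the level of mRNA. Fos measured 9.33, 9.37, 9.84 and 9.37 after sham and 11.01, 10.93, 10.37 and 10.81 after UV (1.30 ± 0.21, adjusted p = 0.000329), with no overlap. Fosl1 rose by 0.89 ± 0.17 (adjusted p = 0.00163). The partners Jun and Junb differed by -0.02 ± 0.20 (adjusted p = 0.983) and 0.39 ± 0.47 (adjusted p = 0.769), and 6 of 19 immediate early genes rose and 1 fell; 3 rose without sham replicate A, UV 24 h replicate A or UV 24 h replicate E. Cebpd, a transcription factor of the acute-phase response, rose by 2.44 ± 0.20 (adjusted p = 1.64e-07), whereas its relative Cebpb differed by 0.12 ± 0.21 (adjusted p = 0.861). The NF-kB subunits Rela and Rel differed by 0.32 ± 0.13 (adjusted p = 0.159) and 0.00 ± 0.16 (adjusted p = 0.998), and the NF-kB regulator Bcl3 rose by 1.43 ± 0.20 (adjusted p = 0.000113).

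**Figure D2:**
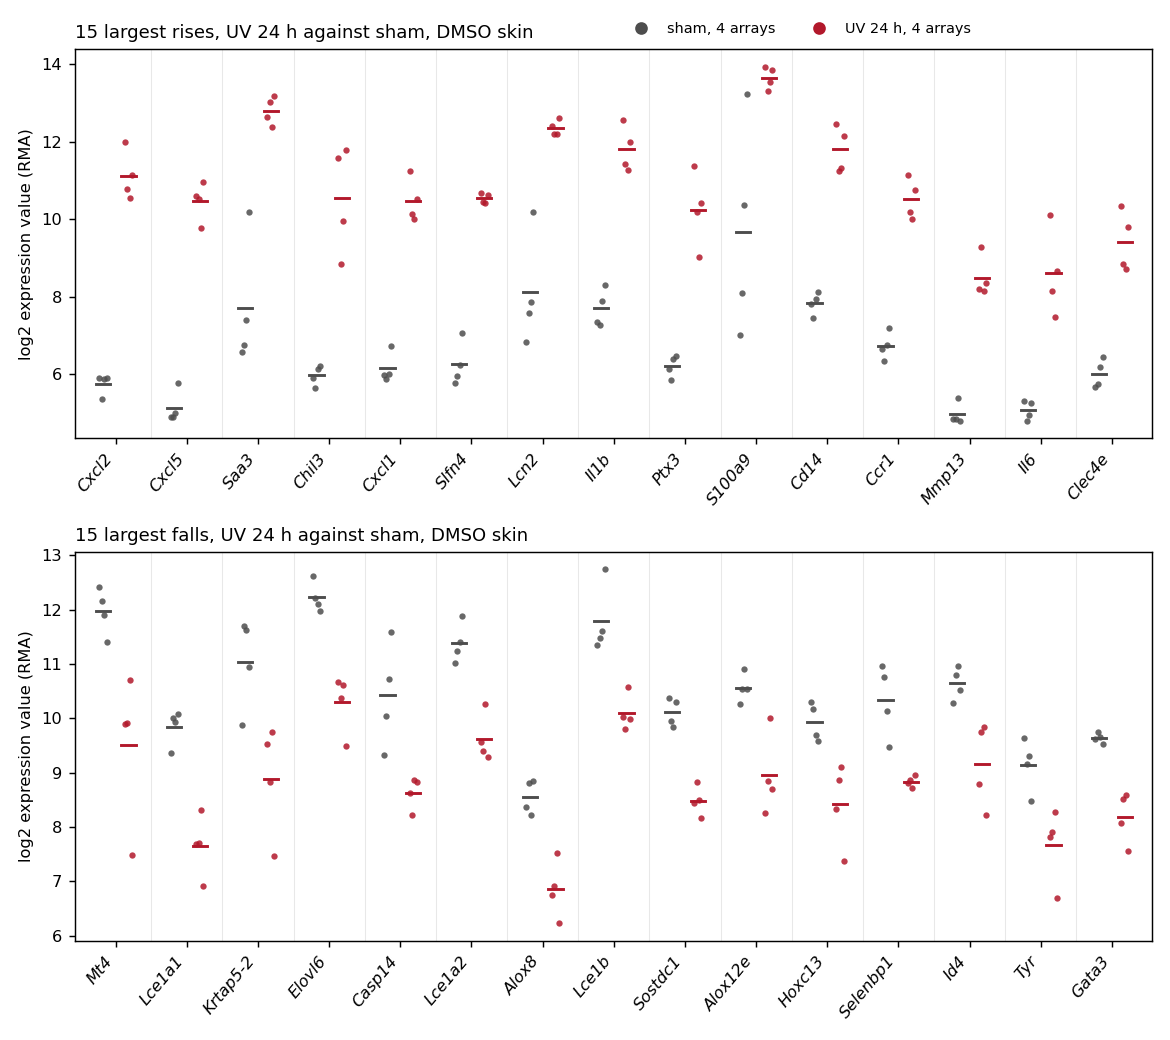
Points are log2 values of single arrays for the 15 genes with the largest rises and the 15 with the largest falls among genes past the threshold whose groups do not overlap; lines are group means, and levels compare only within a gene. Sham replicate D is the high grey point of Saa3, Lcn2 and S100a9 (10.19, 10.19 and 13.24), and UV 24 h replicate E the low red point of Mt4 (7.48).

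Genes of the outer epidermis were lower. All 17 measured members of the cornified envelope list had negative differences and 8 fell (against 4.72% of all genes), with a median of -1.12. Late cornified envelope gene Lce1a1 measured 9.36, 10.00, 9.94 and 10.07 after sham and 7.68, 7.70, 8.31 and 6.91 after UV (-2.19 ± 0.44, adjusted p = 0.00266). Lce1a2 and Lce1b fell likewise, with -1.76 ± 0.29 (adjusted p = 0.000508) and -1.70 ± 0.36 (adjusted p = 0.00431), and their groups did not overlap either. Lor, which encodes the main envelope protein loricrin, measured 12.12, 12.22, 12.50 and 12.83 after sham and 11.58, 10.90, 11.54 and 10.72 after UV (-1.23 ± 0.21, adjusted p = 0.000722). Filaggrin, Flg, measured 8.54, 10.22, 10.59 and 11.08 after sham and 7.78, 7.45, 8.69 and 7.60 after UV, so that sham replicate A overlapped the irradiated arrays. It fell by 2.23 ± 0.67 (adjusted p = 0.0398) and did not pass without any 1 of 6 arrays (adjusted p 0.0916 to 0.113). Casp14, a protease of cornification, fell by 1.79 ± 0.47 (adjusted p = 0.0203), lost without any 1 of 4 arrays (adjusted p 0.055 to 0.0759). The transglutaminases Tgm1 and Tgm3 differed by -0.27 ± 0.45 (adjusted p = 0.846) and -0.59 ± 0.43 (adjusted p = 0.53). Of the 17 members, 5 fell without sham replicate C or D or UV 24 h replicate A or B, 6 without UV 24 h replicate E and 9 without sham replicate A (median -1.55).

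Keratins differed by layer. The suprabasal pair Krt1 and Krt10 fell by 1.36 ± 0.41 (adjusted p = 0.0414) and 1.16 ± 0.36 (adjusted p = 0.0486), and each call was lost without any 1 of 7 arrays (adjusted p 0.0579 to 0.122 and 0.0673 to 0.134). The basal pair Krt5 and Krt14 differed by -0.17 ± 0.13 (adjusted p = 0.553) and 0.18 ± 0.20 (adjusted p = 0.743). Keratins of stressed epidermis had positive values that did not pass, 0.93 ± 0.43 for Krt6a, 1.03 ± 0.47 for Krt6b and 0.94 ± 0.57 for Krt16 (adjusted p = 0.218, 0.221 and 0.4). Krt6a measured 11.61 on sham replicate A and 13.77 on sham replicate D, a range that holds all 4 irradiated values but the highest, 13.99. The small proline-rich genes Sprr2f, Sprr2i and Sprr2d, made by stressed keratinocytes, differed by 1.98 ± 0.71 (adjusted p = 0.0947), 1.57 ± 0.81 (adjusted p = 0.293) and 1.09 ± 0.59 (adjusted p = 0.327). Without sham replicate D these 3 passed, with 2.76, 2.49 and 1.73 (adjusted p = 0.0091, 0.0344 and 0.0492).

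Junctions between keratinocytes fell in 4 of 17 genes (median -0.53, and all 17 negative), but in 1 of 17 without sham replicate B or C or UV 24 h replicate E, and in 2 without sham replicate D or UV 24 h replicate A. The desmoglein Dsg2 measured 8.71, 8.99, 8.68 and 8.62 after sham and 7.45, 7.98, 7.66 and 6.47 after UV (-1.36 ± 0.31, adjusted p = 0.00733), with no overlap. None of its 3 other probe sets passed (-0.32 to -0.17). Occludin, Ocln, fell by 0.82 ± 0.20 (adjusted p = 0.0144), lost without any 1 of 3 arrays (adjusted p 0.0509 to 0.0753), and the claudin Cldn1 differed by -0.75 ± 0.28 (adjusted p = 0.103; -0.93 and 0.0422 without UV 24 h replicate C). Of 13 epidermal proteases and inhibitors 3 fell (1 without sham replicate B or C or UV 24 h replicate A or E), among them the kallikrein Klk11 by 1.09 ± 0.25 (adjusted p = 0.00769), while Klk7, which cuts corneodesmosomes, differed by -0.18 ± 0.40 (adjusted p = 0.899). Among 13 barrier lipid genes the epidermal lipoxygenase Alox12e fell by 1.62 ± 0.31 (adjusted p = 0.00197). The lipoxygenase Alox8 fell by 1.71 ± 0.47 (adjusted p = 0.025), lost without any 1 of 4 arrays (adjusted p 0.0608 to 0.103).

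The metallothionein family, small proteins that bind zinc, split by member. Mt4, the form of stratified epithelium, measured 12.42, 12.15, 11.90 and 11.40 after sham and 9.89, 9.92, 10.71 and 7.48 after UV, the deepest fall among genes without overlap (-2.47 ± 0.57, adjusted p = 0.00806). Replicate E was far below the other irradiated arrays, which were themselves all below sham. The widely expressed Mt1 and Mt2 differed by 0.25 ± 0.17 (adjusted p = 0.466) and 0.42 ± 0.13 (adjusted p = 0.0573; 0.47 and 0.0463 without UV 24 h replicate C). Selenbp1, a selenium-binding protein, fell by 1.5 ± 0.33 (adjusted p = 0.00557).

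Genes of lipid synthesis fell in part. Of 16 cholesterol synthesis genes 16 had negative differences and 9 fell, with a median of -0.57. Hmgcs1, the first committed step, measured 12.67, 12.94, 12.88 and 12.46 after sham and 11.66, 12.20, 11.90 and 11.31 after UV (-0.97 ± 0.21, adjusted p = 0.00564), without overlap. The sterol oxidase Msmo1 fell by 0.79 ± 0.19 (adjusted p = 0.00885) and the epoxidase Sqle by 0.62 ± 0.16 (adjusted p = 0.0174), the second lost without sham replicate C (-0.58, adjusted p = 0.0537) or UV 24 h replicate E (-0.48, adjusted p = 0.0886). Of the 16, 2 fell without replicate E (median -0.44), 3 without sham replicate C, 4 without sham replicate B or UV 24 h replicate A, and 5 without sham replicate D. With only the groups compared in the fit 4 fell, and with the GCOS signal 1 did (median -0.56). Srebf2, the transcription factor of the pathway, differed by -0.33 ± 0.15 (adjusted p = 0.21). A sterol response motif, TCACNCCAC, stood in 1 of the 13 genes of the list that had a window, Hmgcs1, and in 1.24% of all windows. It stood likewise in 1 of 13 windows of the largest rises (Saa3) and in 1 of 13 of the largest falls (Mt4). Of the 13 cholesterol genes, 2 held the AP-1 motif (Dhcr7 and Msmo1) and 1 the NF-kB motif (Mvd). The match of Hmgcs1 is in capitals in the 150 bases before the start, chr13:119690201-119690350 on the + strand of GRCm38.p6.
Hmgcs1: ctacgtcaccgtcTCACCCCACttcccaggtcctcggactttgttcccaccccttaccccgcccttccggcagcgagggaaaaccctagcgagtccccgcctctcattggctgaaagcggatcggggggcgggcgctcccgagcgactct

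In the fatty acid branch 7 of 18 genes fell, with a median of -0.55 (3 without sham replicate A or B or UV 24 h replicate A or E, and 4 without sham replicate D or UV 24 h replicate C). With the GCOS signal 1 fell, with a median of -0.51. The elongase Elovl6 measured 12.62, 12.21, 12.10 and 11.98 after sham and 10.67, 10.38, 10.62 and 9.49 after UV (-1.94 ± 0.33, adjusted p = 0.000556), with no overlap. Elovl5 fell by 0.88 ± 0.19 (adjusted p = 0.00372) and Acly, which supplies acetyl-CoA, by 0.55 ± 0.14 (adjusted p = 0.0141). The desaturase Scd1 of sebaceous glands differed by -0.37 ± 0.22 (adjusted p = 0.398). Fat cell genes did not pass for the most part, with Adipoq at -0.07 ± 0.41 (adjusted p = 0.966) and Fabp4 at 0.29 ± 0.15 (adjusted p = 0.288), and 1 of 13, the transcription factor Cebpa, fell (-0.78 ± 0.20, adjusted p = 0.0147; -0.68 and 0.0676 without UV 24 h replicate E).

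All 21 hair shaft and inner root sheath genes had negative differences (-1.92 to -0.70), and part of the follicle regulators fell. None of 21 hair shaft and inner root sheath genes passed the limma threshold, although the median was -1.5; at an unadjusted p under 0.05, 5 were lower, and with the dChip signal 0 passed as well. The shaft keratin Krt31 differed by -1.92 ± 0.96 (adjusted p = 0.274). Without UV 24 h replicate E the list's median was -0.67. Outside the list, the keratin-associated protein gene Krtap5-2 fell by 2.15 ± 0.60 (adjusted p = 0.028) without overlap, a call lost without any 1 of 4 arrays (adjusted p 0.0555 to 0.133) and with the dChip signal (-2.27, adjusted p = 0.107). Regulators of the follicle fell in 7 of 21 members (2 without UV 24 h replicate E, 3 without UV 24 h replicate A and 4 without sham replicate B or with the dChip signal), with a median of -0.49. Gata3, a factor of the inner root sheath, measured 9.62, 9.75, 9.65 and 9.53 after sham and 8.08, 8.51, 8.58 and 7.56 after UV (-1.45 ± 0.22, adjusted p = 0.000227). Lef1, the Wnt pathway factor of the hair matrix, fell by 0.96 ± 0.15 (adjusted p = 0.000287; -0.38 and 0.134 with the dChip signal). For both genes all irradiated arrays were below all sham arrays. Hoxc13, which controls hair keratin genes, fell by 1.52 ± 0.38 (adjusted p = 0.0145) and did not pass without UV 24 h replicate E (-1.17, adjusted p = 0.076). Sostdc1, an inhibitor of BMP and Wnt signalling in the follicle, fell by 1.63 ± 0.31 (adjusted p = 0.00166) and Id4, an inhibitor of basic helix-loop-helix factors, by 1.5 ± 0.30 (adjusted p = 0.00246).

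Melanocyte genes fell in 5 of 10 members (median -0.92), in 2 without UV 24 h replicate A or E or sham replicate A or B, and in 3 without sham replicate C or with the dChip signal. Tyr, the rate-limiting enzyme of melanin synthesis, measured 9.64, 9.16, 9.31 and 8.48 after sham and 7.81, 7.90, 8.28 and 6.69 after UV, without overlap (-1.48 ± 0.32, adjusted p = 0.00511). Its other probe sets were at -0.64 (adjusted p = 0.0061) and -0.44 (adjusted p = 0.108). The melanosome transporter Slc45a2 fell by 0.94 ± 0.18 (adjusted p = 0.00149). Mitf, the master factor of the lineage, differed by -0.41 ± 0.14 (adjusted p = 0.0847). Melanocytes of mouse back skin lie mostly in hair follicles, and the melanocyte score was lowest on the irradiated array with the lowest hair score, replicate E (-0.55, against -0.07 to 0.18 on the others). With the hair score as a covariate 2 melanocyte genes fell (median -0.75), as did 6 follicle regulators (-0.37), 4 cholesterol genes (-0.5) and 5 fatty acid genes (-0.59). Over all lists and other genes, 912 of the 1284 called genes stayed past the threshold with this covariate. The hair list itself was lower after UV, and whether hair content bears on these falls was not tested.

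**Figure D3:**
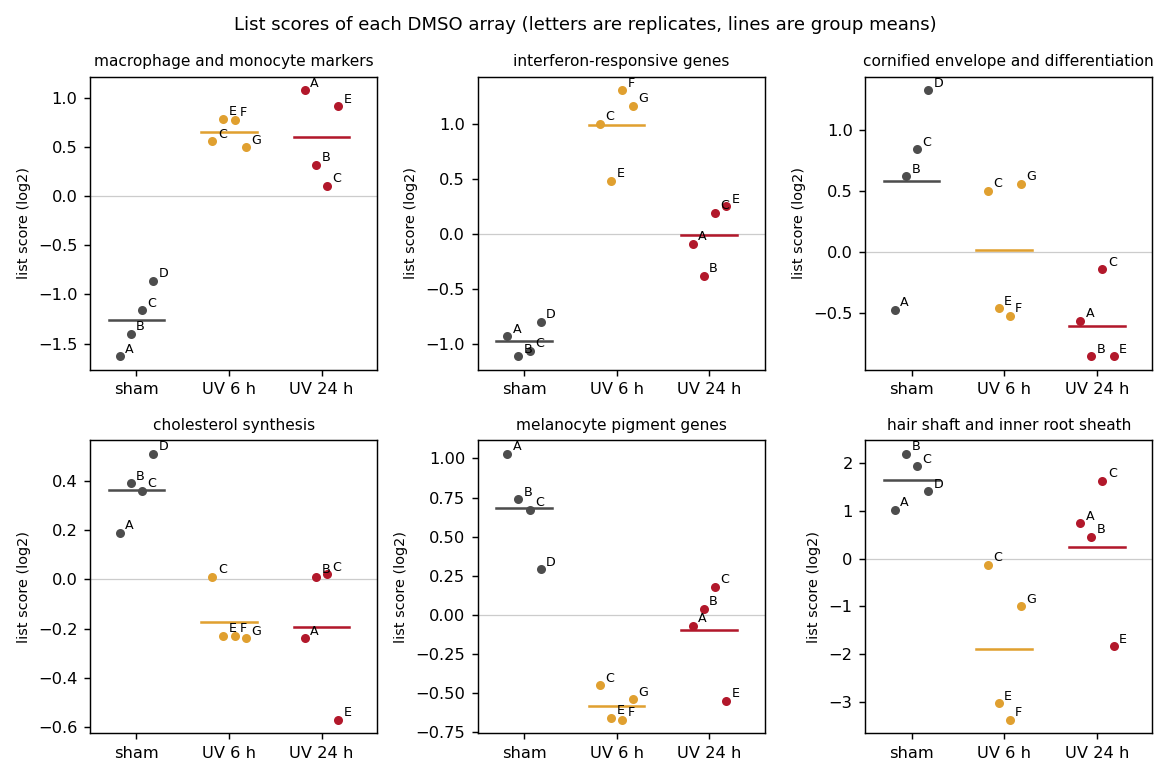
Points are scores (mean centred log2 value of the list's members) of each DMSO array by group, with the replicate letter, and lines are group means. Macrophage scores of UV 24 h arrays (0.11 to 1.08) lie above all sham scores, and UV 24 h replicate E is the lowest of its group for hair (-1.84), melanocyte (-0.55) and cholesterol genes (-0.57).

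Proliferation and DNA damage genes showed smaller differences. All 21 mitotic genes had negative values (median -0.40), and 3 fell: Kif11, a spindle motor, by 0.43 ± 0.11, Cenpf, a kinetochore protein, by 0.86 ± 0.24 and Prc1, which bundles the midzone, by 0.51 ± 0.15 (adjusted p = 0.0213, 0.0278 and 0.034). These calls were lost without any 1 of 3 arrays for Kif11 (adjusted p 0.0704 to 0.0758), of 4 for Cenpf (0.0523 to 0.122) and of 7 for Prc1 (0.0544 to 0.13). None of the list passed without UV 24 h replicate A or E, and 1 did without sham replicate A, B or D. Mki67, a marker of cycling cells, measured 10.87, 10.09, 10.11 and 9.99 after sham and 9.12, 9.72, 9.57 and 8.69 after UV (-0.99 ± 0.31, adjusted p = 0.0513). Its groups did not overlap, as held for 8.61% of all genes in that direction, and sham replicate A was the highest. Mki67 passed without UV 24 h replicate B (-1.14, adjusted p = 0.0398) or replicate C (-1.09, adjusted p = 0.0474). By limma 0 of 21 genes of G1/S and replication passed; 6 were lower at an unadjusted p under 0.05, and 0 passed with the dChip signal. Among 22 p53 targets 2 rose and 1 fell. The kinase Plk2 rose by 0.75 ± 0.14 (adjusted p = 0.0011). Neither Cdkn1a, which encodes the inhibitor p21 of cell cycle kinases, at 0.12 ± 0.17 (adjusted p = 0.809), nor Mdm2 passed, the latter at 0.47 ± 0.18 (adjusted p = 0.117; 0.61 and 0.0307 without UV 24 h replicate C). Among 17 genes of nucleotide excision repair, which removes UV photoproducts, the polymerase subunit Pold1 fell by 0.40 ± 0.10 (adjusted p = 0.0113), and the damage sensors Xpc and Ddb2 differed by -0.10 ± 0.12 (adjusted p = 0.764) and -0.20 ± 0.15 (adjusted p = 0.54).

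Receptors of the ERBB family and their ligands moved in different directions, with 3 of 16 list members rising and 2 falling. Erbb2 measured 9.04, 8.94, 8.74 and 8.94 after sham and 8.03, 8.52, 8.52 and 7.92 after UV, without overlap (-0.67 ± 0.15, adjusted p = 0.00506). Erbb3, its partner receptor, also fell (-0.87 ± 0.21, adjusted p = 0.0122), but not without UV 24 h replicate E (-0.64, adjusted p = 0.0608), and Egfr differed by 0.03 ± 0.13 (adjusted p = 0.956). Epgn, an EGFR ligand of skin, measured 8.58, 8.63, 8.65 and 9.11 after sham and 10.43, 10.98, 10.49 and 10.04 after UV (1.74 ± 0.21, adjusted p = 1.56e-05). The ligands Tgfa, Btc and Ereg differed by 0.18 ± 0.27, -0.15 ± 0.18 and -0.28 ± 0.32 (adjusted p = 0.832, 0.763 and 0.756), and Hbegf by 1.10 ± 0.35 (adjusted p = 0.0525; 1.27 and 0.0378 without sham replicate D, 1.36 and 0.0281 without UV 24 h replicate E). A second probe set of Hbegf rose by 0.92 (adjusted p = 0.000214). Errfi1, a feedback inhibitor of ERBB kinases, rose by 0.87 ± 0.21 (adjusted p = 0.0101).

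Metabolic and stress genes made up the rest. Of 17 glycolysis and hypoxia genes 6 rose (median 0.40), with Hif1a up by 1.00 ± 0.14 (adjusted p = 0.000116), the vasodilator peptide gene Adm by 2.13 ± 0.40 (adjusted p = 0.00133) and the lactate exporter Slc16a3 by 1.16 ± 0.20 (adjusted p = 0.000691), while Vegfa differed by 0.11 ± 0.12 (adjusted p = 0.757). Among 16 oxidative stress and NRF2 genes 5 rose (2 without sham replicate B or UV 24 h replicate E), among them the mitochondrial Sod2 by 0.88 ± 0.16 (adjusted p = 0.00125) and the haem oxygenase Hmox1 by 1.37 ± 0.28 (adjusted p = 0.00334), whereas the classical NRF2 target Nqo1 differed by 0.29 ± 0.10 (adjusted p = 0.0933). Of the clock genes, Bhlhe40 rose by 0.89 ± 0.15 (adjusted p = 0.000635) and Rora fell by 1.07 ± 0.22 (adjusted p = 0.0038), while Per2 and Dbp differed by -0.14 ± 0.13 (adjusted p = 0.671) and 0.20 ± 0.21 (adjusted p = 0.721); the sham skin was taken at another time after treatment, and that part was not tested. By limma 0 of 25 respiratory chain genes passed, with 1 higher and 1 lower at an unadjusted p under 0.05 and 1 higher with the dChip signal. Cyp1a1, induced through the aryl hydrocarbon receptor, measured 9.27, 9.09, 9.13 and 9.20 after sham and 8.52, 8.59, 8.47 and 8.47 after UV (-0.66 ± 0.21, adjusted p = 0.0545). Its groups did not overlap and varied little within themselves.

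With the dChip signal, Casp14, Cenpf, Cma1, Dsg2, Erbb2, Hoxc13, Krt1, Krt10, Pold1, Prc1 and Slc45a2 kept their direction but did not pass (adjusted p 0.0552 to 0.218). Other probe sets of some called genes did not pass either. Those of Stat3 differed by 0.14 and 0.89 against 0.76, and those of Rora by -0.64 and -0.31 against -1.07. Lox and Hif1a had another probe set that rose (1.74 and 0.97) and others that did not pass (0.22 for Lox, 0.03 and 1.16 for Hif1a). For Ms4a6d the other differed by 0.00 against 3.18, for Cebpd by 0.28 against 2.44, for Lor by -0.19 against -1.23, for Selp by 0.32 against 1.31, for Fosl1 by 0.16 against 0.89, for Erbb3 by -0.13 against -0.87 and for Cenpf by -0.10 against -0.86.

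Against the 4 arrays taken 6 h after UV, the 24 h arrays differed in 8 of 12106 genes (0.0661%), 4 higher (0.033%) and 4 lower (0.033%), and in 0.0458% of probe sets. The comparison shares the 24 h arrays with the one against sham, and at an unadjusted p under 0.05, 2680 of 19645 probe sets differed. Lower at 24 h were Cxcl10 and Cxcl11, interferon-induced chemokines of T cells, by -2.16 ± 0.40 and -1.75 ± 0.32, the interferon-induced GTPase Irgm2 by -1.39 ± 0.25 (adjusted p = 0.0497 for each) and the small heat shock protein Hspb1 by -0.54 ± 0.09 (adjusted p = 0.0205). Cxcl10 averaged 7.36 ± 0.20 after sham, 10.28 ± 0.25 at 6 h and 8.13 ± 0.33 at 24 h (SD, n = 4 each). The chemokine receptor Cxcr4 was higher at 24 h by 1.22 ± 0.17 (adjusted p = 0.00812), with 6.86 ± 0.27 after sham, 6.74 ± 0.24 at 6 h and 7.95 ± 0.25 at 24 h (SD, n = 4 each). So were the actin-binding Lasp1 by 0.85 ± 0.12, the deoxyribose-phosphate aldolase Dera by 0.66 ± 0.11 and the glycosyltransferase Galnt2 by 0.62 ± 0.10 (adjusted p = 0.0102, 0.0413 and 0.0183). The count was 203 probe sets without UV 6 h replicate C, 80 without UV 24 h replicate E and 0 without UV 24 h replicate B.

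Of 19 interferon-responsive genes 8 passed against sham, all upward (median 0.85; 14 passed with only the groups compared). All 19 together had a median of -1.03 for 24 h minus 6 h. The GTPases Gbp2 and Igtp were above sham by 2.58 ± 0.38 (adjusted p = 0.000162) and 1.42 ± 0.30 (adjusted p = 0.00354), and 1.03 and 1.47 below their 6 h means. Hair shaft genes had a median of 2.15 for 24 h minus 6 h mitotic genes one of 0.62 and the macrophage list one of -0.03. Hair scores at 24 h (-1.84 to 1.63) and 6 h (-3.38 to -0.13) overlapped. Gbp2 and Igtp did not pass between the times (adjusted p = 0.255 and 0.0535). Mmp13 was 2.13 ± 0.41 above its 6 h mean (adjusted p = 0.0535).

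**Figure D4:**
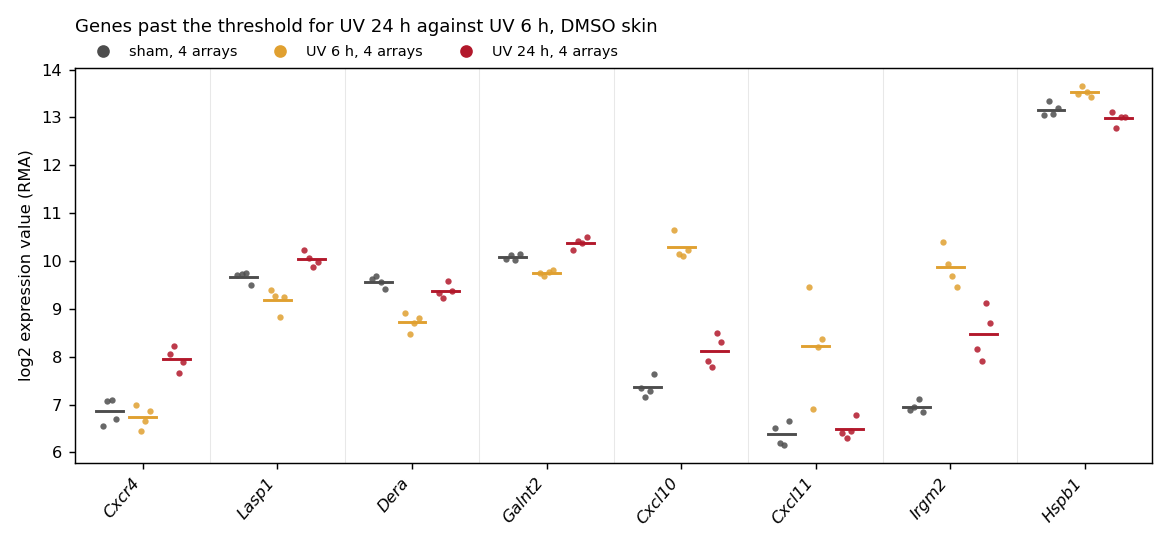
Points are log2 values of single DMSO arrays (sham, UV 6 h and UV 24 h, 4 each) and lines are group means for the 8 genes that differed between 24 h and 6 h. Cxcl10 and Irgm2 at 24 h lie between their sham and 6 h values, Cxcl11 at 24 h overlaps sham, and Cxcr4 at 24 h lies above both other groups (mean 7.95 against 6.86 and 6.74).

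The contrast was also measured in skin painted with AG825, on 7 arrays that entered none of the DMSO group means. They did enter the shared estimate of the spread behind the DMSO calls. There 700 of 12106 genes passed (5.78%), of which 517 rose (4.27%) and 183 fell (1.51%). Of the 713 genes that rose in DMSO skin, 706 had a positive and 400 a called rise with AG825, and of the 571 that fell, 545 had a negative and 115 a called fall. No gene was called in opposite directions. Over all genes the differences in the 2 drug groups correlated at r = 0.801, as a description across genes of 1 array type. Cxcl5 rose by 4.81 ± 0.34 (adjusted p = 7.03e-08), Saa3 by 4.73 ± 0.70 (adjusted p = 0.000417) and Il6 by 3.31 ± 0.49 (adjusted p = 0.000417), and Cd207 fell by 1.45 ± 0.23 (adjusted p = 0.00074). Hmgcs1 differed by -0.05 (adjusted p = 0.907), and the cholesterol list had a median of -0.24. The difference between the drug groups was tested as an interaction over all probe sets. It was passed by 0.00509% of probe sets. Of the 1284 genes called in DMSO skin 0 passed that test in limma; 149 had an unadjusted p under 0.05 (11.6%, against 5.01% of all genes), and the dChip signal gave 1 call over all probe sets. For Cxcl2, with 5.36 in DMSO and 2.47 ± 0.53 in AG825 skin, the interaction had an adjusted p of 0.855, and for Il1b, with 4.10 and 2.21 ± 0.33, it was also 0.855.

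**Figure D5:**
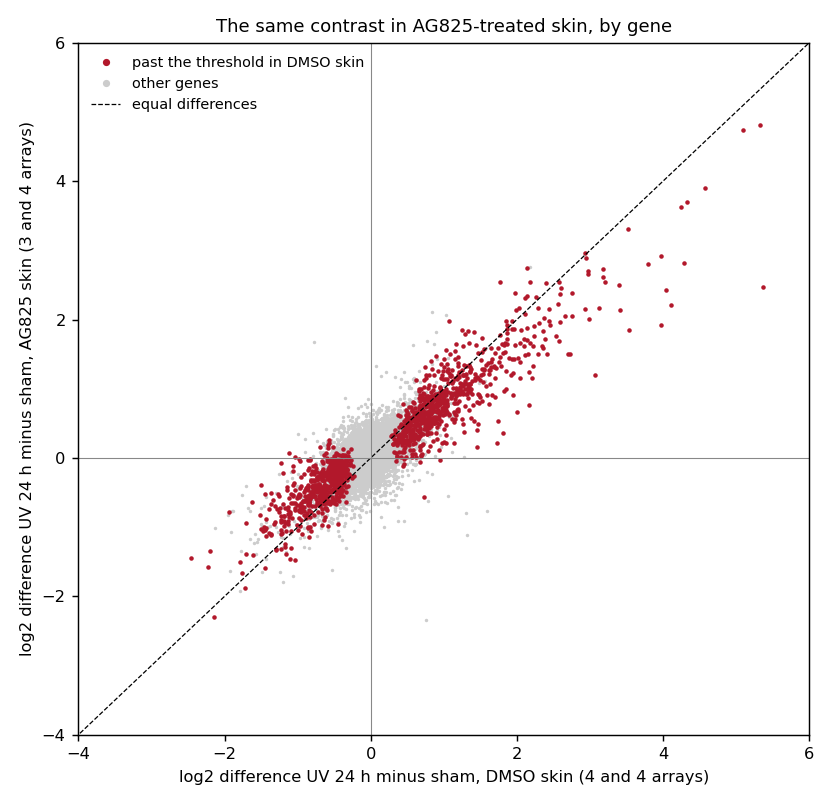
Each point is a gene, with its log2 difference UV 24 h minus sham in DMSO skin on the x axis and in AG825 skin on the y axis; red points passed the threshold in DMSO skin, and the dashed line marks equal differences. Of the 713 genes that rose, 706 lie above 0 on the y axis, and of the 571 that fell, 545 lie below it.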

How the data were processed

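Total RNA of mouse back skin was hybridised to 23 oligonucleotide arrays in 6 groups. The log2 values were made by the authors with RMA, per the submitters' processing notes; RMA as a method corrects background and quantile-normalizes between arrays. The dChip and GCOS signals are intensities on a linear scale, as deposited by the authors. Absent and present calls and an alternative signal come from the deposited dChip table (signal of 22690 probe sets), and a further signal from the deposited GCOS table (signal of 22 arrays). From the log2 values of 19645 probe sets, limma 3.58.1 in R 4.3.3 fitted a mean for each of 6 groups, with Benjamini-Hochberg adjustment over all probe sets and a threshold of 0.05. The number of arrays limits the precision. The fit was tested on simulated data: of 200 probe sets changed, those with a 2-fold change in the comparison of UV 24 h with sham were recovered in 85% and those with a 4-fold change in 98%.

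Genes named were the 15 largest rises and falls without overlap, list members with the smallest adjusted p, members needed to show how a list differs, and the genes past the threshold against 6 h. The members and lists were chosen with earlier results of these data known. No label states whether replicate letters pair the samples, and the main fit left them unpaired. Arrays of the same letter correlated in their deviations at -0.122, 0.268 and 0.17. So few values cannot decide whether the letters pair the samples. Alternatives were the other signals, a filter on present calls, covariates, a replicate block and leaving out each array. Of probe sets, 17825 name 1 gene, 445 several and 1375 none; probe sets with several or none were not named. Promoter sequences are from RefSeq, build GRCm38.p6.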

Additional observations from a re-analysis of the deposited data

Results flagged for a closer look

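Of 474 groups of 4 arrays tested, 27 (5.7%) had 1 array far from the other 3, and chance gives this in about 1 in 20 groups. Among sham arrays, replicate D was apart for Cxcl1 (6.73), Cxcl5 (5.77), Epgn (9.11), Cma1 (9.53) and Lasp1 (9.5), replicate A for Cd74 (11.52), Cenpf (9.31), Hmox1 (8.27) and Mki67 (10.87), replicate B for Cxcl2 (5.37), and replicate C for Fos (9.84), Igtp (8.09) and Mmp13 (5.38). Among arrays at 24 h after UV, replicate A was apart for Adipoq (12.39), Fabp4 (13.06), Hp (13.5), Marco (7.25) and Sprr2d (11.88), replicate C for Il33 (8.78) and Klk7 (13.18), and replicate E for Jun (8.88). All are log2 expression values.

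Scores of gene lists had such arrays too. Sham replicate A was apart for prostaglandin genes (-0.26), mitotic genes (0.74) and skeletal muscle genes (-0.04), and sham replicate D for mast cell markers (-0.09) and for C/EBP, NF-kB and inflammatory regulators (-0.15). UV 24 h replicate C was apart for keratins (0.10).

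The effect of UV at 24 h differed between the drug groups for 1 gene, Tmem14c, a mitochondrial membrane protein, by -3.10 ± 0.47 (AG825 minus DMSO, adjusted p = 0.0364 by limma). It differed by 0.75 in DMSO skin (adjusted p = 0.181) and fell by 2.35 in AG825 skin (adjusted p = 0.000417).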

How the results depend on the processing

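The 1714 probe sets that differed from sham became 1016 with the GCOS signal (691 higher and 325 lower, 68.0% higher against 56.1%). With its pseudocount of 1 they became 853 (610 and 243, 71.5% higher). With a replicate block 2422 passed, and whether the letters pair the samples is not known. Leaving out 1 array gave 975 to 1934, and the 3 counts furthest below were without UV 24 h replicate E (975), UV 24 h replicate A (993) and sham replicate B (1083). Without sham replicate A and UV 24 h replicate E together, chosen after seeing the data, 694 passed. All 1284 genes kept their direction when any 1 array was left out, which is little to ask since the other arrays are the same. From 725 (without UV 24 h replicate E) to 1188 (without UV 24 h replicate C) of them stayed past the threshold. With the dChip signal 1266 kept their direction and 837 stayed past the threshold. The 9 probe sets that differed from 6 h became 43 with dChip, 53 with the filter on present calls, 1 with only the groups compared, 0 with the replicate block, 0 with percent present and 0 with the hair score as covariate, and 0 to 203 without 1 array. The 952 of AG825 skin became 333 to 1670 without 1 array. Mmp10, which rose in the main fit, changed sign with dChip (-0.28). The hair shaft median was 0.01 with the hair score as covariate, an outcome fixed in advance because that score averages the same genes. The clock gene median was 0.10 with dChip, 0.06 with the filter and 0.02 over all probe sets of a gene. The cause of the Mmp10 and clock gene changes was not tested.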
